A study of Mus musculus with 123 samples.

Results

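The genes described are 53 cell cycle and DNA replication genes, 18 of DNA replication and entry into S phase and 35 of mitosis, in mouse lung. Members were taken by gene symbol from a fixed list of names, with 1 array probe set for each gene, the one with the highest mean over all arrays. Of the 53, 39 had a probe set with that symbol alone among the 13053 genes tested, 14 of the 18 replication members and 25 of the 35 mitosis members. Mcm4, Cdc6, Rrm2, Pcna, Ccnb1, Cks2, Plk1, Mad2l1, Nuf2, Birc5, Prc1, Racgap1, Stmn1 and Top2a were not analysed here. Lungs were taken from BALB/c animals of an asthma model whose allergen is ovalbumin (OVA), a protein of egg white, with 1 array for each of 123 mice. Sensitized mice numbered 62, with 8 at each of 0, 2, 6, 48, 72, 96 and 168 h after the challenge and 6 at 24 h. Naive mice numbered 61, with 8 at each of 0, 6, 24, 72 and 168 h and 7 at each of 2, 48 and 96 h. The design text has both arms receiving OVA at challenge, whereas PBS appears in each title of a naive sample, so the sensitized minus naive difference may hold the effect of the challenge as well as that of sensitization. The sources used here do not say whether the mice at 0 h had already received a challenge, nor the age of the mice or the route and number of doses.

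Cells that divide copy their DNA in S phase and share it out in mitosis, and most of the proteins that do this work are made only in cycling cells. Helicase subunits, enzymes that make DNA building blocks and the cyclins that start S phase are switched on by E2F transcription factors. Cyclins, kinases, motors and kinetochore proteins follow later in the cycle, under the MuvB complex acting with B-Myb and FOXM1. Adult lung at rest holds few dividing cells, while allergic inflammation brings in proliferating lymphocytes and can drive division of resident cells.

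Values are log2 signals, so a difference of 1 is a doubling, and levels of different genes are not compared because probe sets differ in brightness. Array medians lay between 9.32 and 9.44. Markers of alveolar type II cells, the surfactant-making cells of the lung, averaged 13.63 to 13.73 over the 6 sensitized mice at 24 h and 13.65 to 13.78 over the 8 naive mice, as log2 values, so the tissue carried the signal of lung. On 10 of the 123 arrays the markers of squamous epithelium or skeletal muscle, tissues that can come along with dissected lung, stood far above the other arrays. Adipocyte markers at 0 h averaged 7.066 to 8.635 in sensitized mice and 8.622 to 9.783 in naive mice. By limma 6 of 9 of them, 5 of 13 skeletal muscle and 0 of 10 cardiac muscle markers fell at 0 h, where 1607 of 13053 genes fell. The part of adipose tissue in the member values was not tested. The log2 difference of the 3′ and 5′ actin controls, a measure of RNA degradation, was lower in sensitized mice than in naive mice at 6 h (by 0.18, adjusted p = 0.0224) and at 24 h (by 0.127, adjusted p = 0.0213) and higher at 168 h (by 0.289, adjusted p = 0.0319), each by a two-sided exact permutation test, and its part in the member values was not tested. In whole tissue, fewer cells of a type and less RNA per cell cannot be told apart, and the same holds for more cells and more RNA.

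The members were higher in sensitized lungs at 6 of the 8 times, in 2 phases with a gap at 2 h. At 0 h, 38 of 39 members rose in sensitized mice relative to naive mice and none fell, by limma at an adjusted p below 0.05, where 14.2% of all genes tested rose. At 2 h no member passed limma's test, with 5 of 39 under an unadjusted p of 0.05 and 3.76% of all genes called in either direction. At 6 h, 32 members rose and 1 fell, while 24.6% of all genes rose and 33.2% fell. All 39 members rose at 24 h, where 22.8% of all genes did, at 48 h, where 17.0% did, and at 72 h, where 22.2% did. At 96 h, 38 rose and the transcription factor gene Foxm1 missed the threshold (0.17 ± 0.07 SE, adjusted p = 0.0504), while 21.2% of all genes rose. At 168 h limma called no member, 3 had an unadjusted p below 0.05, and 4.81% of all genes were called in either direction.

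The size of the differences followed the same course. The median member difference, sensitized minus naive on the log2 scale, was 0.69 at 0 h, 0.19 at 2 h, 0.54 at 6 h, 1.42 at 24 h, 1.14 at 48 h, 1.37 at 72 h, 0.86 at 96 h and 0.14 at 168 h. Counts of members whose arms did not overlap were 7 at 0 h, 0 at 2 h and 6 h, 38 at 24 h, 36 at 48 h, 33 at 72 h, 28 at 96 h and 0 at 168 h. Among all genes tested, every sensitized mouse lay above every naive mouse in 1.98% at 0 h, 0.429% at 2 h, 1.50% at 6 h, 13.0% at 24 h, 5.98% at 48 h, 6.92% at 72 h, 6.13% at 96 h and 0.383% at 168 h. At 24 h the 1 member with overlapping arms was Ccne2, the gene of a cyclin that starts S phase.

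**Figure D1:**
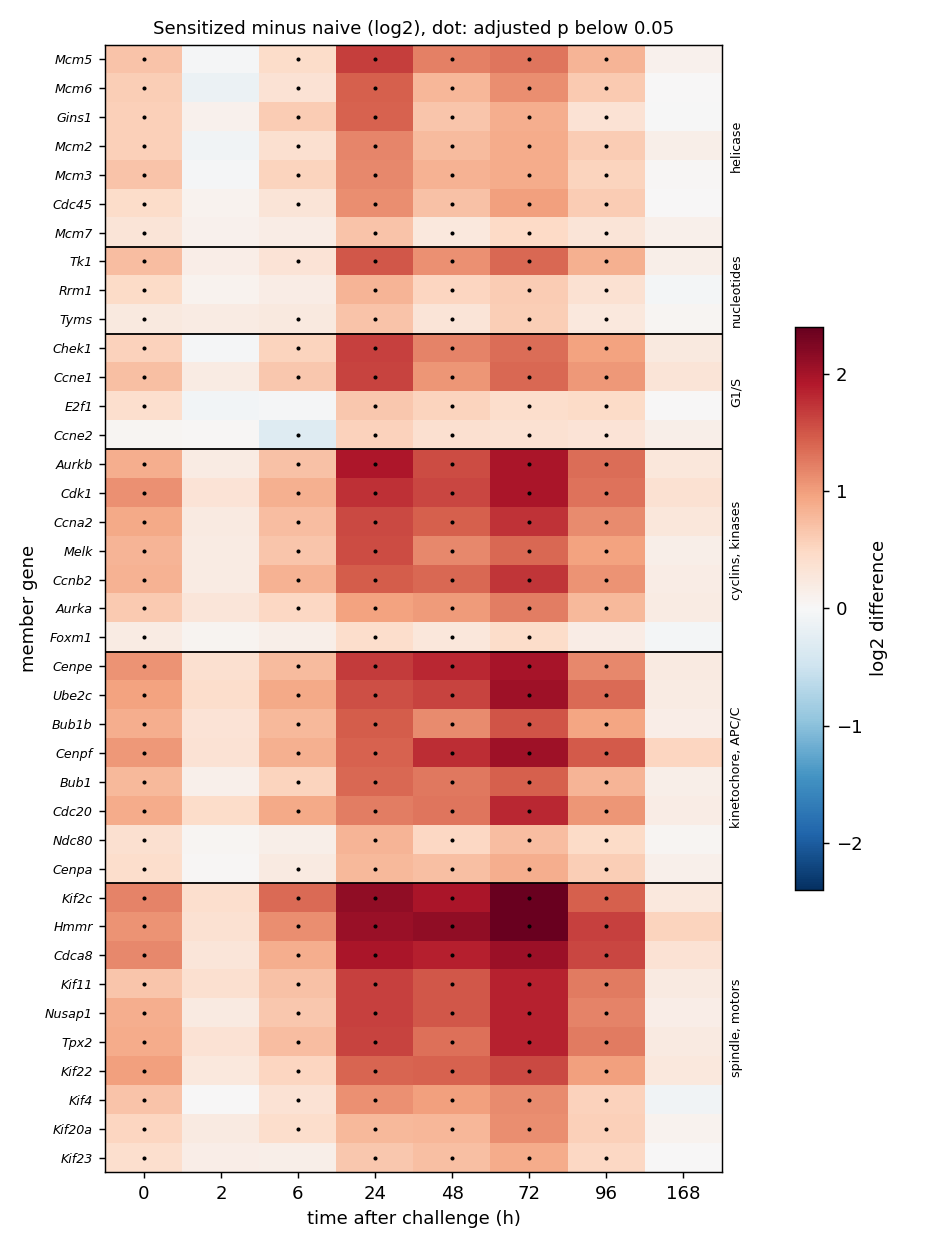
Sensitized minus naive log2 difference (colour) of the 39 measured members (rows, in blocks by role) at the 8 times after challenge in hours (columns), with a dot where limma's adjusted p was below 0.05. Dots fill the columns at 24, 48 and 72 h, no dot stands at 2 h or 168 h, and Ccne2 at 6 h is the 1 dotted cell below 0.

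Among the replication members, the 7 measured genes of the helicase that unwinds DNA at the origins, Mcm2, Mcm3, Mcm5, Mcm6, Mcm7, Cdc45 and Gins1, rose together at 24 h with differences from 0.69 to 1.66. Mcm5, a subunit of the ring-shaped core of that helicase, had the highest of them. At 24 h Mcm5 was at 10.18, 10.66 and 11.04 (lowest, median and highest log2 value) in the 6 sensitized mice and at 8.72, 8.95 and 9.20 in the 8 naive mice. Every sensitized mouse lay above every naive mouse, a 3.15-fold difference (1.66 ± 0.16 SE on the log2 scale, limma adjusted p = 4.13e-15). At 2 h the Mcm5 values were 8.96, 9.33 and 9.67 in sensitized mice and 9.19, 9.33 and 9.63 in naive mice, so the arms overlapped fully and the difference was -0.02 ± 0.16 (SE). At 72 h Mcm5 stood at 10.03, 10.63 and 11.15 in sensitized mice and at 9.15, 9.36 and 9.65 in naive mice, again without overlap, with a difference of 1.28 ± 0.15 (SE, limma adjusted p = 6.31e-12). Gins1, a subunit of the GINS complex that joins the helicase to make it active, was at 9.34, 9.65 and 9.98 in sensitized mice and at 8.04, 8.26 and 8.52 in naive mice at 24 h (difference 1.41 ± 0.13 SE, limma adjusted p = 1.94e-16). The least changed was Mcm7, another subunit of the ring, at 0.69 on the log2 scale, a 1.62-fold difference.

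Of the genes that supply nucleotides, Tk1, Rrm1 and Tyms were measured, and all 3 rose at 24 h. Tk1 makes thymidine kinase, which salvages thymidine for DNA synthesis. Its values at 24 h were 9.62, 9.92 and 10.42 in sensitized mice and 8.25, 8.55 and 8.70 in naive mice, so the arms did not overlap. The Tk1 difference was 1.48 ± 0.16 (SE) on the log2 scale, 2.79-fold, with a limma adjusted p of 4.7e-13. Rrm1, the large subunit of the enzyme that turns ribonucleotides into deoxyribonucleotides, differed 1.75-fold, and Tyms, thymidylate synthase, 1.62-fold at that time.

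The 4 measured regulators of S phase entry, Ccne1, Ccne2, Chek1 and E2f1, had unlike patterns. Chek1, a checkpoint kinase that guards replicating DNA, stood at 8.93, 9.36 and 9.71 in sensitized mice and 7.47, 7.62 and 8.03 in naive mice at 24 h. Its arms were apart, with a 3.10-fold difference (1.63 ± 0.19 SE, limma adjusted p = 3.91e-12). At 72 h 7 of 8 sensitized mice exceeded every naive mouse in Chek1, and replicate 5 at 8.04 did not. The cyclin E genes Ccne1 and Ccne2 parted. Ccne1 differed 3.08-fold at 24 h and rose at each of 0, 6, 24, 48, 72 and 96 h, whereas Ccne2 did not pass the test at 0 h (0.04 ± 0.11 SE, adjusted p = 0.794 by limma). At 6 h Ccne2 was at 7.61, 7.79 and 8.18 in sensitized mice and at 7.61, 8.12 and 8.73 in naive mice. These arms overlapped, yet the sensitized mean was lower by 0.31, the 1 member to fall in any comparison of the arms (SE 0.11, limma adjusted p = 0.0103). By 24 h Ccne2 was higher in sensitized mice, at 8.31, 8.65 and 8.94 against 7.93, 8.05 and 8.38 in naive mice (difference 0.56 ± 0.12 SE, limma adjusted p = 3.09e-05). E2f1, an activator of S phase genes, had differences of 0.40 at 0 h, -0.03 at 6 h and 0.65 at 24 h, with the middle value short of the threshold (adjusted p = 0.768).

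In the mitosis class, all 7 measured cyclins, kinases and their regulators rose at 24 h. Cdk1, the kinase that drives entry into mitosis, was at 10.34, 10.76 and 11.27 in sensitized mice and 8.78, 9.09 and 9.31 in naive mice at 24 h. At 72 h Cdk1 was at 9.81, 10.76 and 11.26 in sensitized mice and 8.53, 8.74 and 8.98 in naive mice. The arms were apart at both times, by 1.75 ± 0.23 (SE, limma adjusted p = 4.54e-10) at 24 h and 1.96 ± 0.21 (SE, limma adjusted p = 2.99e-13) at 72 h, which is 3.35-fold and 3.89-fold. At 0 h Cdk1 was already 2.14-fold higher, at 9.27, 9.94 and 10.96 in sensitized mice and 8.81, 9.02 and 9.28 in naive mice, where only the lowest sensitized value reached into the naive range. Aurkb, the kinase of the chromosomal passenger complex, had the largest difference of this role at 24 h, with values of 8.63, 9.09 and 9.49 in sensitized mice and 6.90, 7.12 and 7.53 in naive mice. That separation was 3.86-fold (1.95 ± 0.21 SE, limma adjusted p = 1.47e-13). The cyclins Ccna2 and Ccnb2 differed 3.01-fold and 2.72-fold at 24 h, and 3.32-fold and 3.27-fold at 72 h.

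Kinetochores attach chromosomes to the spindle, and the anaphase promoting complex then destroys cyclins and the bonds between chromatids. All 8 measured members of this role rose at 24 h and at 72 h. Cenpe, a kinesin motor at the kinetochore, was at 7.02, 7.21 and 8.16 in sensitized mice and at 5.54, 5.76 and 6.19 in naive mice at 24 h, without overlap (difference 1.67 ± 0.19 SE, 3.18-fold, limma adjusted p = 8.55e-13). At 72 h it was at 7.16, 7.41 and 8.13 in sensitized mice and 5.29, 5.58 and 5.75 in naive mice, a 3.93-fold difference. Each probe set of the data reached at least 7.03 on some array. Cenpe may therefore be present only through its sensitized values, and its separation may be partly set by that. Cdc20, an activator of the anaphase promoting complex, differed 2.33-fold at 24 h and 3.50-fold at 72 h, Ube2c, the E2 enzyme of that complex, 2.91-fold and 4.10-fold, and Cenpf, a large kinetochore protein, 2.68-fold and 4.11-fold. The smallest differences in this role at 72 h were those of Ndc80, which binds microtubules at the kinetochore, at 0.73, and of Cenpa, the histone variant of centromeres, at 0.87 on the log2 scale.

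On the probe sets used, the spindle and its motors held the largest differences of all members. Hmmr, a microtubule-binding protein of the spindle that also binds hyaluronan, was at 9.22, 10.34 and 10.87 in sensitized mice and at 7.30, 7.88 and 8.24 in naive mice at 72 h. No naive mouse reached the sensitized range, and the difference was 2.38 ± 0.24 (SE) on the log2 scale, 5.20-fold, with a limma adjusted p of 2.04e-14. Kif2c, a kinesin that takes microtubules apart and corrects wrong attachments, was at 8.61, 9.14 and 9.97 in sensitized mice and at 6.53, 6.85 and 7.30 in naive mice at 72 h. It had the largest difference at 24 h, 2.13 ± 0.22 (SE), 4.38-fold, and at 72 h stood 5.16-fold higher. At 24 h the Kif2c values were 8.50, 9.05 and 9.82 in sensitized mice and 6.47, 6.99 and 7.58 in naive mice, again apart. Cdca8, borealin of the chromosomal passenger complex, had 8.46, 9.29 and 10.01 in sensitized mice and 7.04, 7.25 and 7.51 in naive mice at 72 h, a 4.18-fold difference. Kinesins of the spindle midzone were lower on this scale, with Kif20a at 2.18-fold and Kif23 at 1.86-fold at 72 h.

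**Figure D2:**
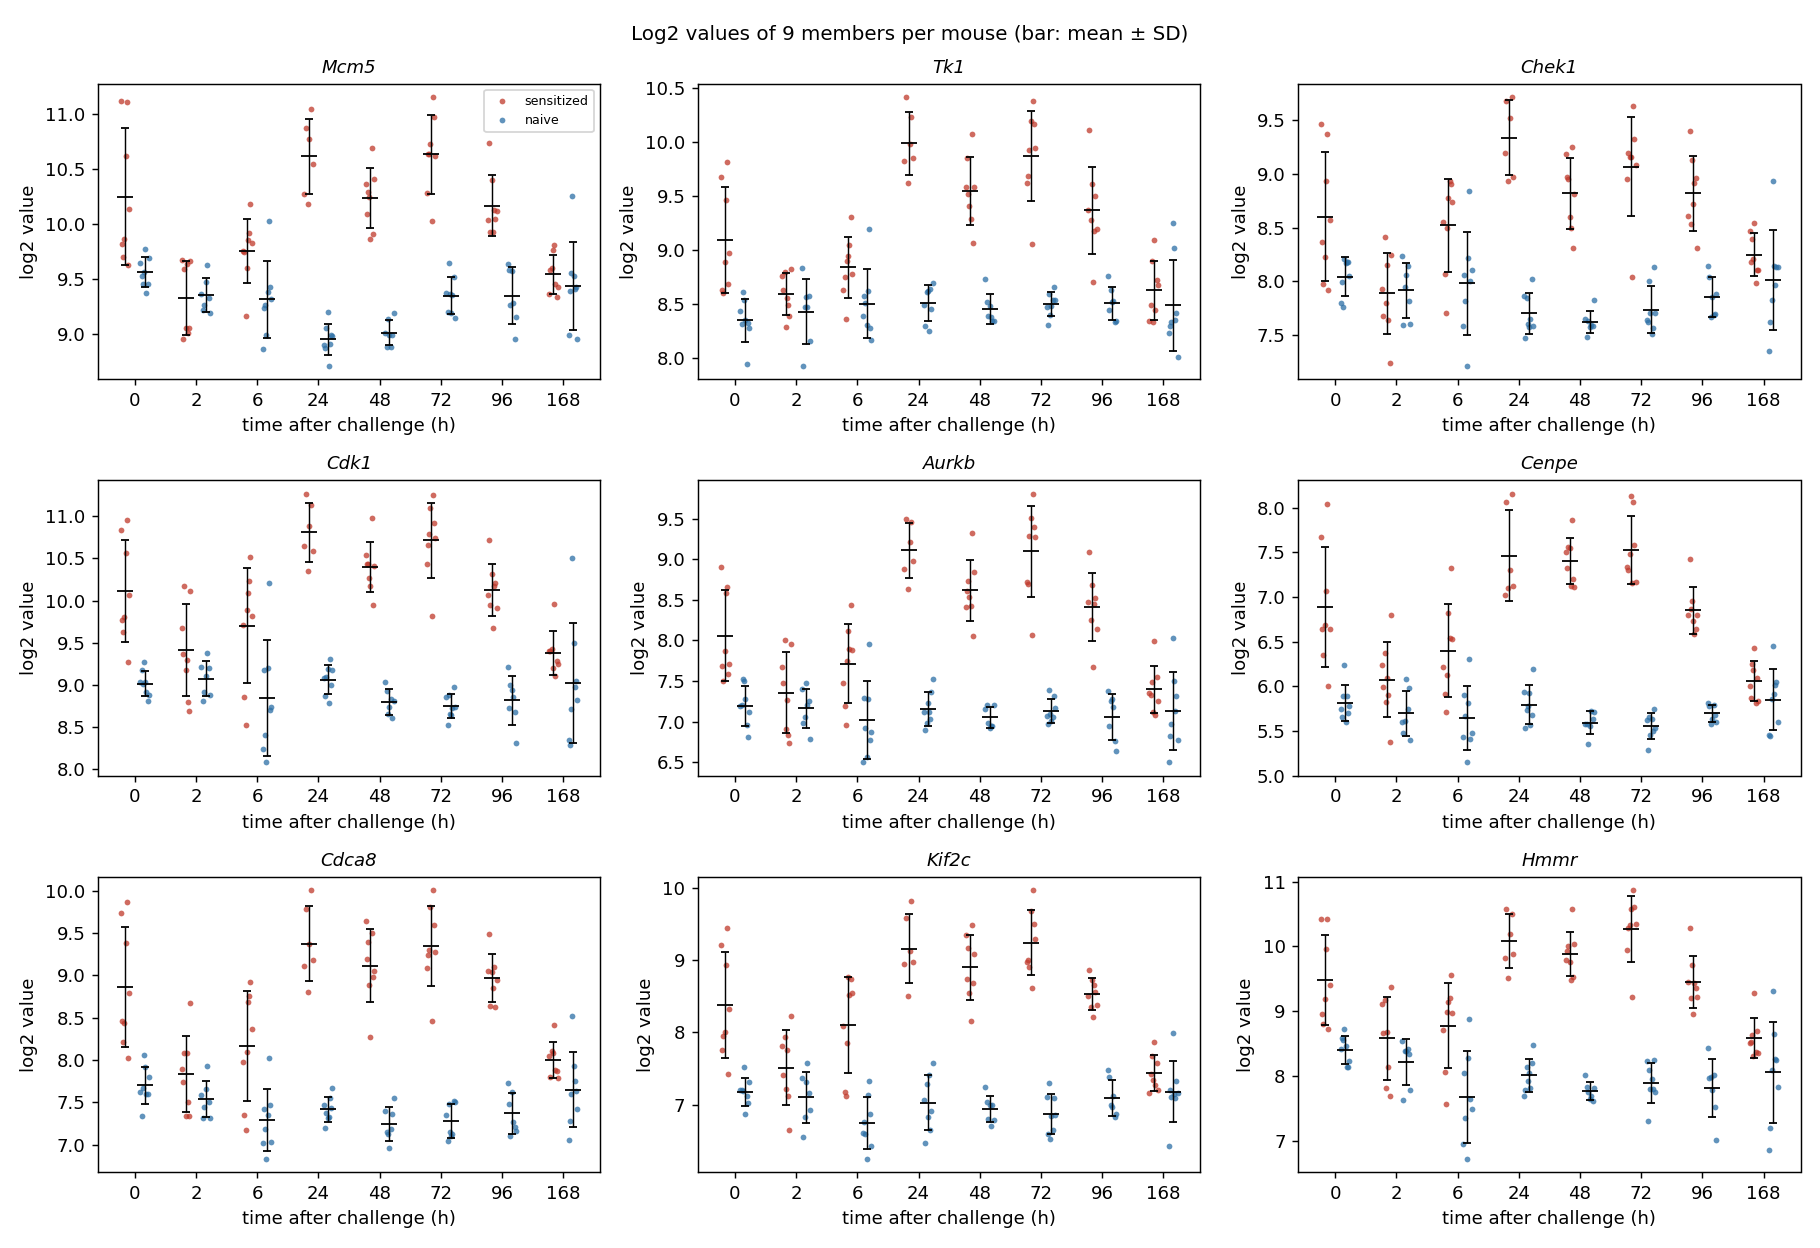
Log2 values of 9 members (vertical axes) in each of the 123 mice, by hours after challenge (horizontal axes), with sensitized mice left in red and naive mice right in blue at each time, and black bars for the group mean ± SD. The sensitized mice stand clear of the naive mice at 24, 48 and 72 h, apart from replicate 5 in Chek1 at 72 h, and the arms overlap at 2, 6 and 168 h in every panel.

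Replication and mitosis members differed in when the arms stood farthest apart. In each of the 14 replication members the difference was larger at 24 h than at any other time, and in 23 of the 25 mitosis members it was largest at 72 h, the exceptions being the kinase gene Melk and Ndc80 at 24 h. The ratio of the log2 difference at 72 h to that at 24 h had a median of 1.13 in mitosis members (0.884 to 1.48) and of 0.772 in replication members (0.615 to 0.928). The test of this shift itself found little. In a contrast added after the pattern was seen, 0 of the 39 members had a sensitized minus naive difference at 72 h that differed from that at 24 h by limma, with 2 mitosis members (Cdc20 and Kif20a) and 1 replication member (Gins1) under an unadjusted p of 0.05, and 0.544% of all genes called in either direction. Within sensitized mice, 3 replication members were lower at 72 h than at 24 h, namely Gins1 (by 0.49), Mcm7 (by 0.29) and E2f1 (by 0.27), and 0 mitosis members passed limma's test, with 2 under an unadjusted p of 0.05, where 11.4% of all genes fell. The median change within sensitized mice from 24 h to 72 h was 0.06 in mitosis members, with 17 of 25 above 0. The median change of the arm difference in these members was 0.21. In replication members the medians were -0.19 within sensitized mice, with only Mcm5 (0.02) above 0, and -0.24 for the arm difference. Naive values thus also entered the shift. The same 24 h mice enter all of these values, so the members do not repeat the pattern independently.

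**Figure D3:**
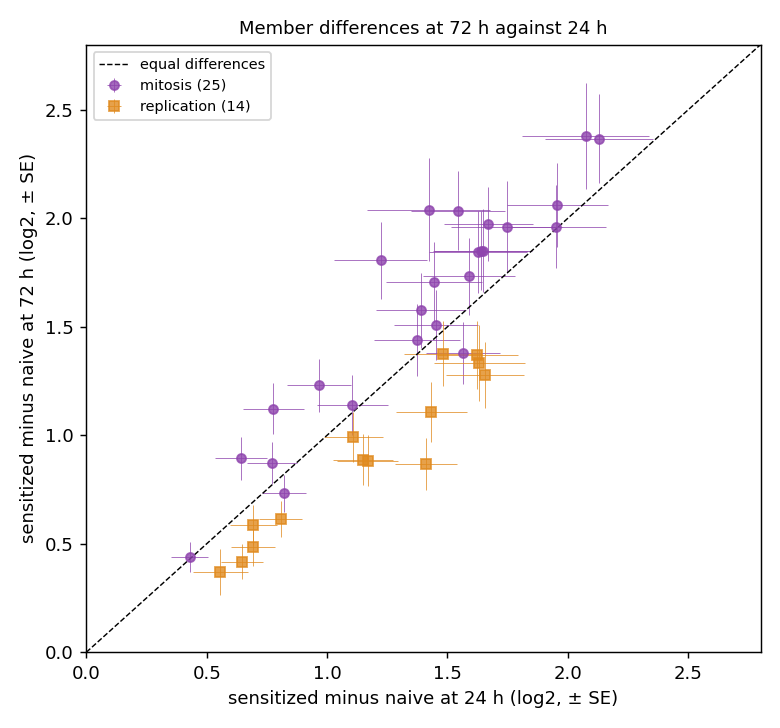
Sensitized minus naive log2 difference at 72 h (vertical axis) against that at 24 h (horizontal axis) of the 25 mitosis members (purple circles) and 14 replication members (orange squares), with bars of ± 1 SE and a dashed line of equal differences. All 14 replication members lie below the line and 23 of the 25 mitosis members lie above it.

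The mean over each class was also taken in each mouse. Over the 25 mitosis members it was 8.74, 9.50 and 9.998 (lowest, median and highest) in sensitized mice and 7.67, 7.88 and 8.07 in naive mice at 72 h. For the 14 replication members it was 9.22, 9.75 and 10.19 in sensitized mice and 8.74, 8.85 and 9.04 in naive mice at that time. Both means separated the arms fully at 24, 48, 72 and 96 h. At 0 h 7 of 8 sensitized mice exceeded every naive mouse in the mitosis mean and 8 of 8 in the replication mean, there with a lowest sensitized value of 9.024 and a highest naive value of 9.023. The mitosis mean less the replication mean in the same mouse was -0.44, -0.37 and -0.15 in sensitized mice at 48 h and -1.06, -0.89 and -0.83 in naive mice, so every sensitized mouse had relatively more mitosis signal. At 24 h this within-mouse difference was -0.70, -0.57 and -0.41 in sensitized mice and -0.92, -0.81 and -0.60 in naive mice, and 4 of 6 sensitized mice lay above every naive mouse. By 72 h it was -0.48, -0.28 and -0.12 in sensitized mice and -1.07, -0.98 and -0.82 in naive mice. The arms of this measure differed on average by 0.308 at 0 h, 0.206 at 2 h, 0.342 at 6 h, 0.251 at 24 h, 0.571 at 48 h, 0.698 at 72 h, 0.441 at 96 h and 0.111 at 168 h, so the value at 24 h lay below those at 0 h and 6 h. Since the classes rest on different probe sets, only its change between groups has a meaning, not its sign.

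**Figure D4:**
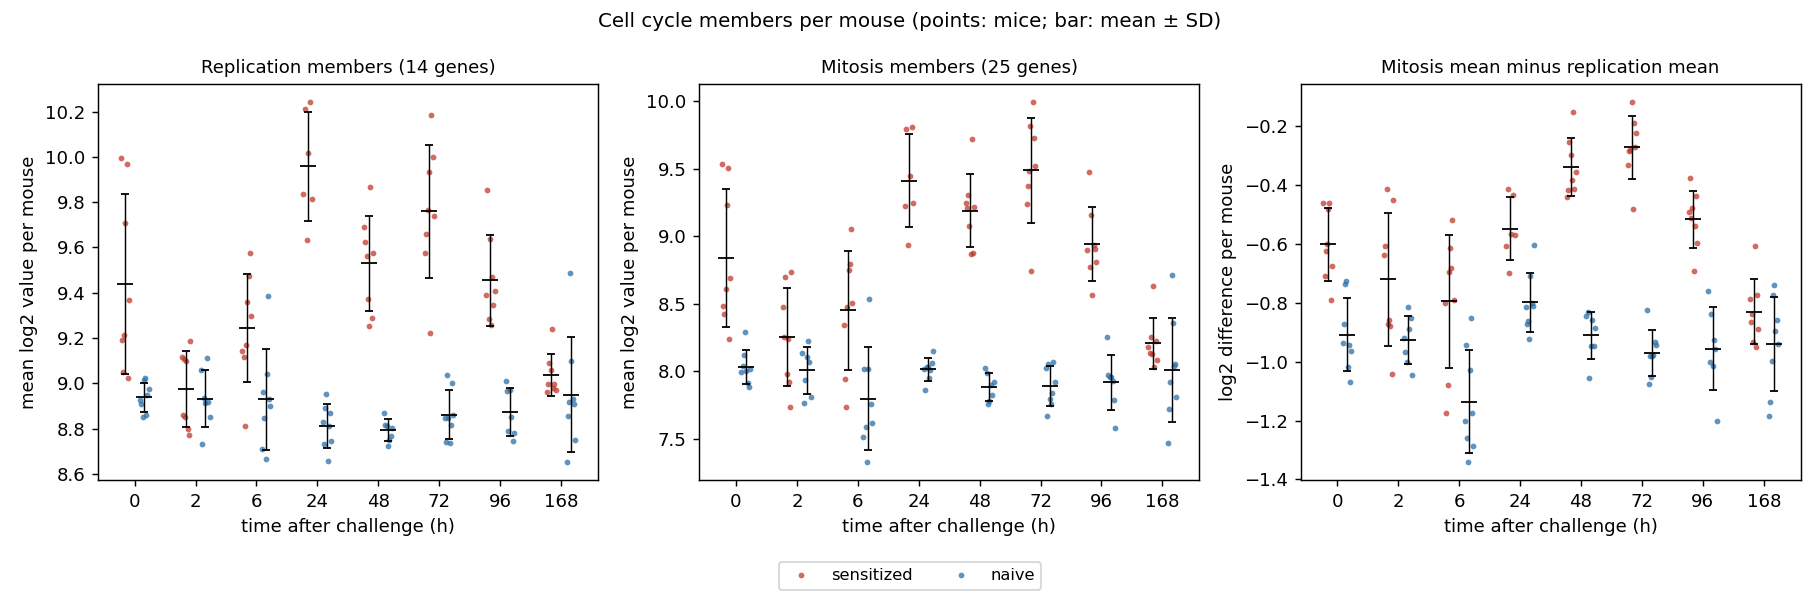
Mean log2 value per mouse over the 14 replication members (left) and the 25 mitosis members (middle), and the mitosis mean less the replication mean (right), by hours after challenge, with sensitized mice left in red and naive mice right in blue, and bars for mean ± SD. In the right panel the sensitized mean climbs between 6 h and 72 h, and in naive mice it lies between -1.14 at 6 h and -0.80 at 24 h.

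Within the sensitized arm, the members first fell and then rose. At 2 h, 30 of the 39 members were lower than at 0 h and none was higher by limma, where 18.0% of all genes fell. Cdca8 dropped by 1.03 and Mcm5 by 0.91 on the log2 scale over these times. From 2 h to 6 h, 10 members rose (among them Chek1 by 0.63, Ccne1 by 0.61 and Gins1 by 0.55) and Ccne2 fell, where 22.1% of all genes rose and 28.7% fell, and 7 of the 10 were replication members. Between 6 h and 24 h all 39 rose, where 18.5% of all genes did, with Aurkb up by 1.39 and Hmmr by 1.31. From 24 h to 48 h, 14 fell, 12 of 14 replication members and 2 of 25 mitosis members (Melk and Ndc80), and 12.3% of all genes fell. No member changed between 48 h and 72 h by limma (18 under an unadjusted p of 0.05, 3.99% of all genes called in either direction). Between 72 h and 96 h, 20 mitosis and 7 replication members fell (5.34% of all genes fell), and by 168 h 37 of 39 were lower than at 96 h (14.8% of all genes fell), the exceptions being Mcm7 and Ccne2. With array quality weights 30 members changed from 2 h to 6 h and 19 from 48 h to 72 h, and at a threshold of 0.01 5 changed from 2 h to 6 h, 6 from 24 h to 48 h and 7 from 72 h to 96 h. The share of all genes was not counted under these settings.

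In naive lungs few members passed limma's tests of change over time. Of the 7 steps between neighbouring times, only that from 6 h to 24 h had a member call, Bub1, a spindle checkpoint kinase, up by 0.59 ± 0.17 (SE, limma adjusted p = 0.0172), where 2.32% of all genes rose. At the other 6 steps limma called 0 members, with 1, 4, 2, 2, 1 and 0 of 39 under an unadjusted p of 0.05 in order of time and 2.91%, 2.72%, 0%, 0.352%, 0.253% and 5.79% of all genes called in either direction. Limma's F test over all times called 39 of 39 members in sensitized mice (87.8% of all genes) and 4 of 39 in naive mice, Bub1, Cenpf, Mcm2 and Mcm5 (38.4% of all genes). The naive count was 16 with array quality weights and 1 at a threshold of 0.01, and the share of all genes was not counted there. The F test for the arm by time interaction called 39 of 39 members, and 62.5% of all genes. Short of the threshold, the naive mitosis members moved together. From 2 h to 6 h 0 of 25 had a change above 0 (median -0.19), and from 6 h to 24 h 25 of 25 did (median 0.22). The same 6 h mice enter both steps. The mitosis mean went from 8.005 at 2 h to 7.794 at 6 h in naive mice and from 8.254 to 8.45 in sensitized mice. Both arms thus entered the change of their difference.

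The arms already differed at 0 h, so each later difference was also tested against that at 0 h. The sensitized minus naive difference was smaller at 2 h than at 0 h in 8 members (4.34% of all genes), 5 of them replication members, with Cdca8 lower by 0.87 and Mcm6 by 0.73. It was larger at 24 h than at 0 h in 16 members (3.39% of all genes), 11 of 14 replication and 5 of 25 mitosis members, among which were Aurkb by 1.09 and Chek1 by 1.07. At 72 h it was larger in 15 members (1.48% of all genes), 1 of 14 replication and 14 of 25 mitosis members, including Hmmr by 1.30 and Kif11, a motor that pushes the spindle poles apart, by 1.18. Neither 48 h nor 96 h had a member call against 0 h by limma, with 18 and 1 of 39 under an unadjusted p of 0.05 and 0% and 3.12% of all genes called in either direction. At 6 h the difference was smaller than at 0 h in E2f1 alone, a lower share than the 14.6% of all genes, and at 168 h in 5 members (0.973% of all genes), Cenpe, E2f1, Kif4, Mcm3 and Rrm1. Between neighbouring times it grew in 5 of 39 members from 2 h to 6 h, again a lower share than the 15.0% of all genes, and in 31 from 6 h to 24 h (9.88%), and shrank in Gins1 and Mcm7 from 24 h to 48 h (1.17%) and in 28 members from 96 h to 168 h (3.25%). From 48 h to 72 h and from 72 h to 96 h it changed in 0 members by limma, with 4 and 31 of 39 under an unadjusted p of 0.05 and 0.107% and 0.00766% of all genes called in either direction. These counts moved with the settings. With array quality weights the difference changed against 0 h in 28 members at 2 h, 35 at 24 h, 25 at 48 h, 38 at 72 h and 8 at 96 h, and at a threshold of 0.01 without weights in 3, 4, 0, 2 and 0 members at those times. At that threshold 24 members passed from 6 h to 24 h and 2 from 96 h to 168 h. Calls over all genes were not counted under these settings, so the member counts have no share beside them. The contrasts against 0 h all use the same mice at 0 h, in which sensitized values were spread widely. Sensitized mice at 0 h had a standard deviation of the mean over all members of 0.468, against 0.091 in naive mice.

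A few mice stood at the edge of their group across most members. Among sensitized mice, replicate 5 at 72 h was lowest in 38 of 39 members, replicate 3 at 24 h in 36 of 39 and replicate 3 at 6 h, a different animal, in 33 of 39. Among naive mice, replicate 6 at 6 h was highest in 38 of 39. Without the lowest sensitized mouse at 24 h and at 72 h, the members whose difference was larger at 72 h than at 0 h numbered 30 in place of 15. Arrays with high squamous epithelium signal touched the 6 h result. They were those of 1 sensitized mouse, replicate 7, which was also the highest of its group in 33 of 39 members, and of 2 naive mice. Sensitized replicate 3 at 6 h, the lowest in 33 of 39, had high skeletal muscle signal and was not among them. Without the 7 arrays of the series with high squamous signal, 20 members were called at 6 h in place of 33. Calls over all genes were not counted in these refits without single mice or arrays.

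Most measured genes of the same pathways that are not members also rose at 24 h, where 22.8% of all genes rose and 24.9% fell. Of 43 other replication genes measured (48 listed), 35 rose and 1 fell at 24 h, with a median difference of 0.65 on the log2 scale. Uhrf1, which keeps DNA methylation through replication, had a difference of 2.27 ± 0.22 (SE, limma adjusted p = 6.9e-15), Exo1, a DNA exonuclease of repair, of 1.90 ± 0.20, Brca1, of homologous recombination, of 1.90 ± 0.19, and Mcm10, a helicase cofactor, of 1.85 ± 0.18. Of 50 other mitosis genes measured (65 listed), 49 rose and none fell, with a median of 1.25, led by Cdca5, sororin of the cohesion of chromatids, at 2.48 ± 0.26 (SE, limma adjusted p = 4.11e-14), Shcbp1 at 2.12 ± 0.22, Esco2, a cohesin acetyltransferase, at 2.07 ± 0.23, and Ska1, a kinetochore protein, at 2.01 ± 0.22.

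Regulators of the cycle were described in a pair of further lists, at a time when 22.8% of all genes rose and 24.9% fell. Of 20 measured G1 cyclins, kinases and E2F factors (23 listed), 10 rose and 5 fell at 24 h, with a median difference of 0.21. The repressors E2f8 and E2f7, themselves E2F targets, rose by 1.80 ± 0.20 and 1.26 ± 0.18 (SE), Cdc25c, a phosphatase that activates Cdk1 at entry into mitosis and so no G1 gene, by 0.90 ± 0.13, and Myc by 0.78 ± 0.23 (limma adjusted p = 0.00305). Among 26 measured inhibitors and quiescence genes (28 listed), 7 rose and 10 fell, with a median of -0.105, beside a median of -0.0217 over all genes, and the share that rose was near that of all genes. In that list the stress gene Gadd45g rose by 1.10 ± 0.24 and Lin9, a MuvB subunit, by 0.49 ± 0.11, while the antiproliferative gene Btg1 fell by 0.83 ± 0.21 and Cdkn1c, a CDK inhibitor, fell by 0.67 ± 0.12 (SE).

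Markers of some leukocytes and of airway epithelium also differed between the arms, some lists at the same times as the members and others not. For comparison, 22.8% of all genes rose at 24 h and 24.9% fell. At 24 h, 10 of 12 activated T cell markers rose and their mean log2 value ranged from 8.83 to 9.30 in sensitized mice and from 7.36 to 7.61 in naive mice. Plasma cell markers rose in 8 of 10 and fell in 1, with means from 11.11 to 11.84 in sensitized mice and 9.85 to 10.61 in naive mice. Of 12 macrophage and monocyte markers 10 rose, with means from 10.69 to 10.91 in sensitized mice and 9.82 to 10.14 in naive mice, and of 11 airway secretory and goblet cell markers 8 rose and 2 fell, with means from 11.53 to 12.31 in sensitized mice and 9.03 to 9.80 in naive mice. At 24 h 11 of 13 T cell and 7 of 9 dendritic cell markers rose as well. Mast cell and basophil markers rose in 6 of 10 and fell in 1. Eosinophil markers rose in 4 of 5 and fell in 1, and germinal centre B cell markers rose in 4 of 7 and fell in 1. Fewer rose in the lists of B cells (1 of 7), neutrophils (2 of 9, near the share of all genes) and natural killer cells (3 of 8). Endothelial markers fell in 7 of 11 and rose in 1, with means from 12.23 to 12.47 in sensitized mice and 12.38 to 12.62 in naive mice. At 6 h, when the median member difference was 0.54, the activated T cell mean ran from 7.45 to 10.52 in sensitized mice and from 7.28 to 7.48 in naive mice. The median difference of the activated T cell markers was 2.33 at 6 h and 1.40 at 24 h. From 0 h to 168 h that of T cell markers was 0.31, 0.03, 0.64, 0.64, 0.21, 0.44, 0.38 and 0.05. In macrophage and monocyte markers it was 0.39, 0.25, 0.48, 0.81, 0.49, 0.52, 0.32 and 0.14. In both of these lists the lowest values were at 2 h and 168 h, as in the members. The same held for airway secretory and goblet cell markers (0.46 and 0.87), and calls over all genes were also fewest at those times. Other lists did not follow it. Activated T cell markers were at 0.59 at 2 h and 0.55 at 96 h, and plasma cell markers at 0.59 at 0 h and 1.01 at 168 h. At 168 h, when no member was called, 7 of 10 plasma cell markers and 7 of 11 airway secretory and goblet cell markers were still higher in sensitized mice. Of all 13053 genes, 444 rose at that time. No marker is at 0, since log2 array signals have no zero, and the part of each of these cell types in the member values was not tested.

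For 21 of the 39 members other probe sets existed, 27 in all. Every one of the 27 had a positive difference at 24 h, and 22 reached at least 0.5 times that of the probe set used. The other 5, in 4 genes, were smaller. A second probe set of Cdc45, the helicase cofactor, differed by 0.14 in place of 1.11 at 24 h, and both other probe sets of Hmmr by 0.53 and 0.64 in place of 2.07. For Kif11 a further probe set differed by 0.73 in place of 1.65 at 24 h, and for Cenpf by 0.64 in place of 1.42. At 72 h the other probe sets of Hmmr differed by 0.63 and 0.68 in place of 2.38. That of Cdca8 differed by 0.97 in place of 2.06, and that of Cenpf by 0.81 in place of 2.04. For Foxm1 the second probe set was the more responsive, at 1.07 in place of 0.43.

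Promoter sequence was compared between the classes, and it did not enter the choice of members. The classes follow known roles, with replication genes under E2F factors and mitosis genes under MuvB. A difference in motifs could therefore be met whatever the arrays show. RefSeq promoters (GRCm38.p6, from 250 bases before the start to 50 after it) were at hand for 32 of the 39, 12 replication and 20 mitosis members. Searched on both strands were the cell cycle genes homology region (CHR, TTTGAA or TTCGAA), the E2F motif (TTTCCCGC, TTTGGCGC, TTTCGCGC or TTTGCCGC) and the CCAAT box (CCAAT), and none of these contains another. A CHR stood in 17 of 20 mitosis promoters (85.0%), 3 of 12 replication promoters (25.0%) and 16.2% of the 10459 tested genes with a promoter. An E2F motif stood in 1 of 20 mitosis promoters (5.0%), 4 of 12 replication promoters (33.3%) and 4.38% of all. The CCAAT box, present in 41.6% of all, was in 16 of 20 mitosis promoters (80.0%) and 7 of 12 replication promoters (58.3%). In the 150 bases before the start alone, a CHR was in 6 of 20 mitosis promoters (30.0%), 1 of 12 replication promoters (8.33%) and 7.82% of all. A match is a run of letters and not a measured binding site.

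**Figure D5:**
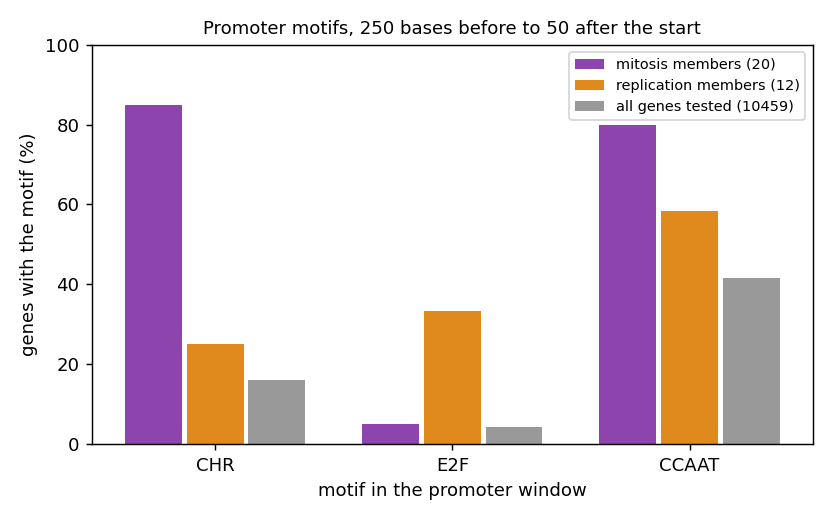
Percentage of promoters (vertical axis) with a CHR, an E2F motif or a CCAAT box between 250 bases before and 50 bases after the start, for 20 mitosis members (purple), 12 replication members (orange) and 10459 genes tested (grey). The CHR bar of the mitosis members is at 85.0% and that of all genes at 16.2%.

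The 120 bases before the start of 6 members are given 5′ to 3′ on the strand of the gene, chosen for these letters, to show what a CHR and a CCAAT box look like in mitosis members beside helicase members, so they do not stand for their classes. Capitals mark matches on either strand, so that a CHR on the opposite strand reads TTCAAA and a CCAAT box on it reads ATTGG. The helicase subunits are Mcm5 (chr8:75109389-75109508, plus strand), whose E2F matches lie farther upstream and so outside the stretch, and Mcm6 (chr1:128359706-128359825, minus strand), which has them inside it. The mitosis members are Cdk1 (chr10:69352913-69353032, minus strand), Cdc20 (chr4:118437344-118437463, minus strand), Ube2c (chr2:164769809-164769928, plus strand) and Kif11 (chr19:37376262-37376381, plus strand). Cdk1 also has an E2F match upstream of its stretch (bases -131 to -124 from the start). The 4 mitosis stretches hold a CHR and the Mcm5 and Mcm6 stretches do not, but the helicase member Mcm2, not shown, has one in the same stretch (bases -70 to -65 from the start), and Mcm7 and Cdc45 have one elsewhere in the promoter.
Mcm5: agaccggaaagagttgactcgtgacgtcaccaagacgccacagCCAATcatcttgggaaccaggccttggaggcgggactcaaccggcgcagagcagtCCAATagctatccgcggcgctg
Mcm6: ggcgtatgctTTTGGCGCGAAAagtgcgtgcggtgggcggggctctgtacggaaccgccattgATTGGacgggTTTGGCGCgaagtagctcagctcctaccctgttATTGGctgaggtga
Cdk1: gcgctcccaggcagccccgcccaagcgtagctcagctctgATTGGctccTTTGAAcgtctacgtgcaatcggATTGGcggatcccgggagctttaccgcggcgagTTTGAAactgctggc
Cdc20: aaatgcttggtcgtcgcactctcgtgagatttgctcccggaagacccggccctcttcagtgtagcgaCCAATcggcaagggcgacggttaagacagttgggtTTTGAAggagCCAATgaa
Ube2c: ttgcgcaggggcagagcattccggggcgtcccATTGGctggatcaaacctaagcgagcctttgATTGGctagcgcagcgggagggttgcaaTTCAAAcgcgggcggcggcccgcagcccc
Kif11: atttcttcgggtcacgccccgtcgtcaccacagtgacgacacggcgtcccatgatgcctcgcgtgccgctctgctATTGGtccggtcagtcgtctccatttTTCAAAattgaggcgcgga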

How the data were processed

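Whole lung RNA of 123 mice was amplified with a 3′ in vitro transcription kit and hybridised to Affymetrix arrays, per the labels' protocols, with RNA integrity numbers over 6. The authors deposited log2 values per probe set from RMA, as named per the submitters' processing notes, a method that equalises the arrays' distributions. Neither its version nor any filter on the features is given in the sources used here. Each probe set reached at least 7.03 on some array, while single values went down to 3.28. A gene low in naive mice may thus be present only through its sensitized mice. The part of this in the differences was not tested. The array data hold 25697 probe sets, 22478 of them with 1 gene symbol in the platform annotation, 259 with several and 2950 with none. All 123 value columns were matched to a sample. Arrays give no counting depth, and their number limits the precision.

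For genes with several probe sets (5672), the one with the highest mean was used, leaving 13053 genes. A model with 1 mean for each of the 16 groups was fitted with limma 3.58.1 (lmFit, eBayes) in R 4.3.3, with 107 residual degrees of freedom, and p-values were adjusted over all genes of a contrast (Benjamini-Hochberg, threshold 0.05). Every SE and adjusted p of a gene is limma's, and a group that varies more than the others has a true error above its SE. Replicates are separate mice by their animal labels and are numbered in deposited order. Members, roles, pathway and marker lists and named genes were chosen with earlier results of these data known, so no p is given for a list. Named with all values were the 3 members with the largest differences at 0, 24, 48 and 72 h and the leading member of each role at 24 h, and Gins1 and Ccne2 were added after their values were seen. In other lists the 4 genes with the largest difference at 24 h are named. The comparison of 72 h with 24 h was added after the data were seen. Actin control differences were compared by exact permutation tests adjusted over the 8 times. The model fit was tested on simulated data. Alternatives were other probe set rules, quantile normalization, centring, a filter on low genes, an intensity trend, array weights, arrays or mice left out, fits at 1 time, a stricter threshold and a shorter promoter window. The rest was done in Python 3.11.15 (matplotlib 3.10.9, scipy 1.17.1, pandas 2.3.3, numpy 2.4.6).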

Additional observations from a re-analysis of the deposited data

Results flagged for a closer look

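A mouse far from the others of its group was looked for in 9 members and in both class means over the 16 groups, 176 tests in all, of which about 1 in 20 would be met by chance; 9 were met. At 168 h sensitized replicate 5 was the highest of 8 mice in the replication mean (9.24, next 9.09), the mitosis mean (8.63, next 8.25), Cdk1 (9.96, next 9.43) and Hmmr (9.28, next 8.69). At 72 h sensitized replicate 5 was the lowest in Chek1 (8.04, next 8.95), and at 96 h sensitized replicate 2 was the highest in Cenpe (7.42, next 6.96). Among naive mice, replicate 4 at 168 h was the highest in Mcm5 (10.26, next 9.55), replicate 6 at 6 h in Tk1 (9.20, next 8.62) and replicate 4 at 0 h in Cenpe (6.24, next 5.89).

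The sensitized minus naive difference itself changed with time by limma. Relative to 0 h it changed in 8 members at 2 h (lower, as in 4.34% of all genes), 1 member at 6 h (E2f1, lower by 0.43, a smaller share than the 14.6% of all genes), 16 at 24 h (higher, 3.39% of all genes), 15 at 72 h (higher, 1.48%) and 5 at 168 h (lower, 0.973%). Between neighbouring times it grew in 5 of 39 members from 2 h to 6 h, a smaller share than the 15.0% of all genes, and in 31 from 6 h to 24 h (9.88% of all genes). It shrank in 2, Gins1 and Mcm7, from 24 h to 48 h (1.17% of all genes) and in 28 from 96 h to 168 h (3.25%). Without the highest naive mouse at 6 h (replicate 6) and at 168 h (replicate 4), the count from 2 h to 6 h was 13 and that from 96 h to 168 h was also 13. The share of all genes was not counted in that refit.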

How the results depend on the processing

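No paired analysis was possible because the columns carry no replicate numbers and the numbers used follow the deposited order of separate animals. None of the values recomputed under the alternatives reversed. With 1 mouse left out at a time (100 refits, naive mice at 72, 96 and 168 h excepted), members called numbered 35 to 38 at 0 h, 0 to 0 at 2 h, 27 to 36 at 6 h, 39 to 39 at 24 h, 38 to 39 at 48 h, 39 to 39 at 72 h, 37 to 39 at 96 h and 0 to 0 at 168 h. Calls over all 13053 genes in the same refits numbered 2003 to 4033, 197 to 577, 6820 to 8086, 5429 to 6287, 3984 to 4948, 5710 to 6406, 4995 to 5758 and 409 to 704 at those times. Of the other recomputed counts and class values of genes, 527 stayed within 1.5 times or the spread and 55 did not, and the cause was not tested. Centring and an intensity trend moved none of these. Calls over all genes were counted only in the refits with 1 mouse left out, so member counts under the other settings have no share beside them. Fits of 1 time alone were run on the counts between the arms, and the classes without genes that span S phase and mitosis on the class values, and neither moved them. A threshold of 0.01 moved no count between the arms. For the other counts it was tried after seeing the data, and gave for the arm difference 3 members at 2 h, 4 at 24 h, 2 at 72 h and 0 at 168 h against 0 h, 2 from 2 h to 6 h, 0 from 24 h to 48 h and 2 from 96 h to 168 h. In sensitized mice it gave 5 from 2 h to 6 h, 6 from 24 h to 48 h and 7 from 72 h to 96 h, and in naive mice 0 from 6 h to 24 h and 1 by the F test.

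Array quality weights moved most. Under them the arm difference changed against 0 h in 28 members at 2 h, 4 at 6 h, 35 at 24 h, 25 at 48 h, 38 at 72 h and 8 at 96 h, and between neighbouring times in 32 from 2 h to 6 h, 7 from 24 h to 48 h and 15 from 72 h to 96 h. The arms differed in 4 members at 168 h. Sensitized mice changed in 30 members from 2 h to 6 h and 19 from 48 h to 72 h, and naive mice in 1 from 0 h to 2 h, 1 from 2 h to 6 h, 6 from 6 h to 24 h and 1 from 24 h to 48 h, with 16 by the naive F test. Without arrays of high squamous signal, counts were 20 at 6 h, 9 for 72 h against 0 h, 1 for the arm difference and 6 for sensitized mice from 2 h to 6 h, 1 in sensitized mice from 48 h to 72 h and 0 in naive mice from 6 h to 24 h. Without arrays of any high neighbouring tissue they were 3 for the arm difference from 2 h to 6 h, 1 in sensitized mice from 48 h to 72 h, 0 in naive mice from 6 h to 24 h and 2 by the naive F test.

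The 2 settings that left out extreme mice were likewise chosen after seeing the data. Without the highest naive mice at 6 h and 168 h, the arm difference changed in 3 members at 168 h against 0 h, in 13 from 2 h to 6 h and in 13 from 96 h to 168 h, sensitized mice in 1 from 48 h to 72 h, and naive mice in 1 from 2 h to 6 h, 2 from 6 h to 24 h and 7 by the F test. Without the lowest sensitized mice at 24 h and 72 h, 30 members changed at 72 h against 0 h and 11 in sensitized mice from 48 h to 72 h. The probe set with the highest variance gave 1 call between the arms at 168 h, 1 for the arm difference from 24 h to 48 h, 1 in naive mice from 96 h to 168 h and 7 by the naive F test, the mean over probe sets gave 2 by the naive F test, and quantile normalization gave 1 in sensitized mice from 48 h to 72 h. With genes averaging at least 8, the mitosis less replication difference at 24 h was 0.146. A CHR stood in 30.0% of mitosis promoters within 150 bases. Of single named genes, 11 values lost the call, mostly Chek1 at 0 h and genes at 6 h, and 2 gained it.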
